A study of Mus musculus with 4 samples.

Results

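The genes described here are 10 genes used as labels of neural progenitors and neurons, out of 26983 genes and unnamed transcripts in the deposited tables. They were chosen by symbol: Sox1, Sox3, Sox4, Sox11, Sox21, Pax3, Pax6, Ncam1, Tubb3 and Trim67. They cover 17 transcript rows, and the FPKM (fragments per kilobase of transcript scaled to the mapped fragments of a library) of the rows of 1 gene were summed. The cells were CJ9, a mouse embryonic stem cell line of strain 129S4/SvJae. All libraries were labelled WT and titled as carrying Cas9 only. By their titles, 2 libraries were taken at day 6 and 2 at day 4 of withdrawal of LIF, the cytokine that holds these cells in self-renewal. The growth text in the labels does not match the titles of 3 of the 4 libraries, since it gives 4 days without LIF to day 6 replicate 1, 2 to day 4 replicate 1 and 6 to day 4 replicate 2. The labels do not state separate cultures within a day, so the spread between them may be technical. Locus-deleted cells were not analysed here. The comparison available is the course of these genes between the days in wild-type cells.

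Neural tissue arises from the epiblast, the pluripotent layer of the embryo, and SoxB1 factors (Sox1, Sox2, Sox3) hold its progenitors in an undifferentiated state, with Sox1 the member most closely tied to the neural plate. The SoxB2 factor Sox21 counters SoxB1 activity, and the SoxC factors Sox4 and Sox11 switch on neuronal genes, as shown in the chick neural tube. Pax3 and Pax6 pattern the neural tube, and Ncam1, Tubb3 and Trim67 encode products used by neurons. Several of these genes are also used elsewhere: Sox3 in the epiblast, Sox4 and Sox11 in mesenchyme, Pax3 in the somite.

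The widths of the deposited intervals correspond to about 5540000 to 6260000 mapped fragments in the day 6 libraries and 3370000 to 3470000 in the day 4 libraries. The day 4 libraries differed with GC content: replicate 2 minus replicate 1 had a median of -1.75 log2 units in genes around 37% GC and 2.10 around 67% GC. The median log2 difference of day 6 minus day 4 over the 11716 genes tested was 0.51, and it was -0.12 after centring each library on its median, -0.02 after quantile normalization and -0.04 after a GC correction. Of the genes tested, limma called 0 (0.00%) at an adjusted p under 0.05, and 1793 (15.3%) had an unadjusted p under 0.05. Both day 6 libraries lay above both day 4 libraries for 41.6% of tested genes and below them for 11.5%. That split was 20.3% and 26.4% after median centring, 23.1% and 25% after quantile normalization, and 26.3% and 29.0% after the GC correction. An exact two-sided permutation test of a single gene cannot go below p = 0.33 with 2 libraries against 2.

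Among the 10 genes, 3 had both day 6 values below both day 4 values (Trim67, Sox11 and Sox1), 3 were higher (Ncam1, Pax3 and Sox21) and 4 overlapped (Sox4, Sox3, Tubb3 and Pax6). Over the 18544 genes with any FPKM, with no filter, 9.44% were lower and 38.1% higher in this way. The mean over the 4 libraries reached 1 FPKM for 6 of the 10 (Sox4, Sox11, Sox3, Ncam1, Tubb3 and Trim67), and these were tested. None of the 6 was called by limma, and 2 of them, Trim67 and Sox11, had an unadjusted p under 0.05. Their median log2 difference was -0.01, beside 0.51 for all tested genes. Trim67 passed the filter only through its day 4 libraries and Ncam1 only through its day 6 libraries (the mean of the other day was under 1 FPKM). Such a gene had to differ between the days to be tested, so counts and medians over tested genes are descriptions. The lists of other genes are counted over all their genes, those at 0 in every library among the overlapping ones. The shares over all genes with any FPKM leave genes at 0 in every library out, so a list with such genes is not counted on the same base. Since the RNA is from whole cultures, fewer cells of a type and less RNA per cell cannot be told apart.

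**Figure D1:**
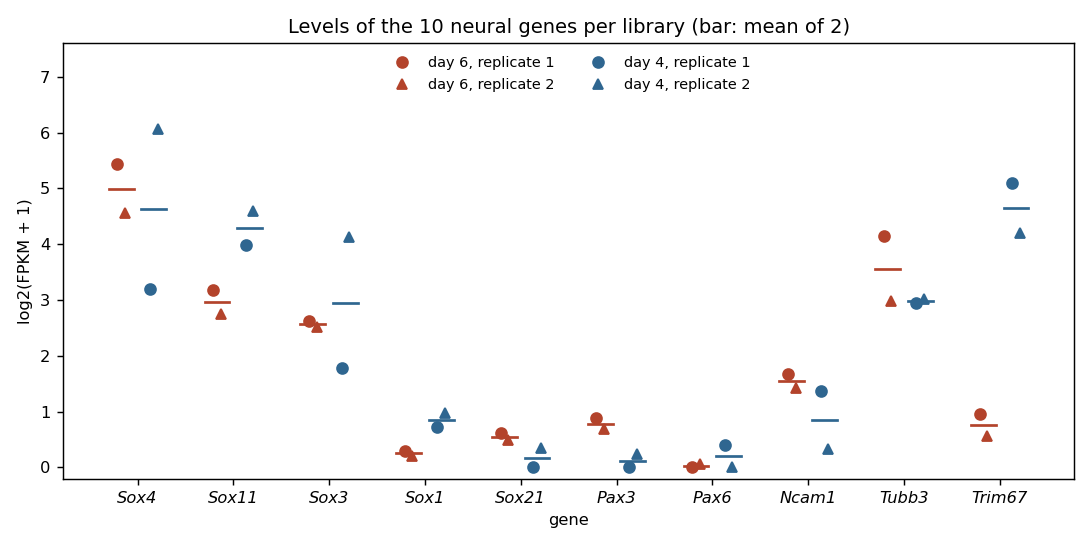
Levels of the 10 genes on the log2(FPKM + 1) scale, with 1 point per library, day 6 left of day 4, and a bar for the mean of the 2 libraries of a day. The 2 day 4 points of Sox4 lie at 8.18 and 66.0 FPKM, on either side of its day 6 points, whereas the 2 days of Trim67 are far apart, with 0.954 and 0.479 FPKM at day 6, compared with 33.1 and 17.5 at day 4.

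Trim67 (NM_198632; mm10, chr8:124793019-124834704, plus strand) encodes a RING-type ubiquitin ligase of the TRIM family that acts in axon outgrowth together with the netrin receptor DCC in mouse neurons. It was given as 0.954 and 0.479 FPKM in day 6 replicates 1 and 2, against 33.1 and 17.5 FPKM in day 4 replicates 1 and 2. Both day 6 values were far below both day 4 values, and the deposited intervals did not meet (0.743 to 1.15 and 0.326 to 0.640 FPKM at day 6, 31.1 to 35.0 and 16.2 to 18.9 FPKM at day 4). The day means were 0.716 ± 0.336 and 25.3 ± 11 FPKM (SD, n = 2), a level 35.3 times higher at day 4. The difference (day 6 minus day 4, on the log2 scale) was -3.89, SE 0.52 (limma, adjusted p = 0.267), and 9 of the genes tested had a more negative difference. Trim67 was already known to be among the largest differences when it was listed, so its size is a description. It was -4.51, -4.40 and -4.32 after median centring, quantile normalization and GC correction. It was called without day 4 replicate 1 or without day 4 replicate 2 (adjusted p = 0.000524 and 0.00207), where the lone day 4 library is assumed to vary like the day 6 pair.

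The relatives of Trim67 gave other values. Of the other class I TRIM genes, Mid1, a microtubule-bound ubiquitin ligase, was given as 6.15 and 2.33 FPKM at day 6, compared with 1.93 and 3.47 at day 4, so that its days overlapped. Trim46, which bundles microtubules at the start of the axon, was higher in both day 6 libraries, at 2.88 and 3.42 FPKM against 0.462 and 1.55 FPKM at day 4 (log2 difference 1.10, SE 0.46; limma, adjusted p = 0.354). Trim9, the closest relative of Trim67 in sequence and known from neurons, stayed at or under 0.369 FPKM in all 4 libraries. With Trim67, 2 of the 6 class I genes were higher without overlap, 1 was lower and 3 overlapped. Over all genes with any FPKM, 38.1% were higher and 9.44% lower. Whether the difference of Trim67 itself differs from those of its relatives was not tested.

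The 250 bases upstream of the RefSeq start sites (GRCm38.p6) are shown for Trim67, Sox11 and Sox1, the 3 genes whose day 6 values were all below their day 4 values. They lie at chr8:124792769-124793018 (plus strand), chr12:27342719-27342968 (minus strand) and chr8:12395269-12395518 (plus strand). Each is written 5′ to 3′ on the strand of its gene, and capitals mark GGGCGG or its reverse complement CCGCCC, the GC box read by Sp factors.
Trim67: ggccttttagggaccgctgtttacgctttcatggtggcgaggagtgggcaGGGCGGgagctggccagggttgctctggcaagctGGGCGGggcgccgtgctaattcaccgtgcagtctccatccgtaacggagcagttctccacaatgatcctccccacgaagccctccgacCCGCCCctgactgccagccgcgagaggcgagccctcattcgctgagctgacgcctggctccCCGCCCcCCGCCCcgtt
Sox11: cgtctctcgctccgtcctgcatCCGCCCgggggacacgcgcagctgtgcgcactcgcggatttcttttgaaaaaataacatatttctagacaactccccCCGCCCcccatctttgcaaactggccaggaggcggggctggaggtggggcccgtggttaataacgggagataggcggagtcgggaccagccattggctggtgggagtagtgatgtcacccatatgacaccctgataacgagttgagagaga
Sox1: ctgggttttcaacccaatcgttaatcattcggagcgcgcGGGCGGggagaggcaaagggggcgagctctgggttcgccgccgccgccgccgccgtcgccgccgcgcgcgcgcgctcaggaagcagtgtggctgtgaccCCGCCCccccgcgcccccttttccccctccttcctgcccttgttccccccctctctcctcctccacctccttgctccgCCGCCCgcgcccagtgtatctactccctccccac
The motif was found 5 times for Trim67, 2 times for Sox11 and 3 times for Sox1, with no matches overlapping. Of 32851 promoters searched over the same length, 32.7% held it at least 1 time, 16.7% at least 2 times, 8.47% at least 3 times and 1.93% at least 5 times. Of the 7 listed genes with an entry, 4 held it, the other being Tubb3 with 2 matches, whose days overlapped. Sox4, Sox21 and Pax6 held none. Whether the motif goes with the difference between the days was not tested. The upstream GC content was 66.8% for Trim67, 58.0% for Sox11 and 71.2% for Sox1, beside a median of 52.4%.

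Of the SoxB1 factors, Sox1 (NM_009233; chr8:12395519-12399555, plus strand) was low in all 4 libraries. It was given as 0.233 and 0.148 FPKM at day 6, compared with 0.655 and 0.969 at day 4. Both day 6 values were lower, but the upper bound of day 6 replicate 1 (0.374 FPKM) exceeded the lower bound of day 4 replicate 1 (0.339 FPKM). With a mean under 1 FPKM it was not tested. Sox3, an X-linked SoxB1 gene (NM_009237; chrX:60891366-60893430, minus strand), was given as 5.17 and 4.71 FPKM at day 6, compared with 2.46 and 16.4 at day 4. The day 6 libraries agreed closely and lay between the 2 day 4 libraries (log2 difference -0.39, SE 0.89; limma, adjusted p = 0.846). Without day 4 replicate 2 the difference was 0.78 (adjusted p = 0.0373), and without day 4 replicate 1 it was -1.55 (adjusted p = 0.00229). The Sox3 transcript has 66.4% GC; its day 4 gap, replicate 2 minus replicate 1, was 2.33 log2 units, beside a median of 1.98 over 76 tested genes within 2 percentage points of its GC content. After the GC correction the Sox3 difference was -0.21, SE 0.31, and it was -1.02 after median centring and -0.89 after quantile normalization.

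Sox2, the third SoxB1 gene and a pluripotency factor as well, supplied most of the group's signal. It was given as 14.8 and 8.31 FPKM at day 6, compared with 50.7 and 91.5 at day 4 (log2 difference -2.51, SE 0.57; limma, adjusted p = 0.267). Its share of the summed SoxB1 FPKM was 73.3 and 63.1% at day 6 and 94.2 and 84.0% at day 4, while the share of Sox3 was 25.6 and 35.7% at day 6 and 4.57 and 15.1% at day 4. Sox1 made up 1.16 and 1.13% at day 6 and 1.22 and 0.890% at day 4. The summed level of the 3 genes was thus lower in both day 6 libraries (20.2 and 13.2 FPKM) than in both day 4 libraries (53.8 and 109 FPKM). Sox21, the SoxB2 gene (NM_177753; chr14:118233234-118237030, minus strand), had 0.525 and 0.411 FPKM at day 6, while day 4 replicate 1 was listed at 0 and replicate 2 at 0.272 FPKM. Its day 6 values were the higher ones, but the interval of day 4 replicate 2 (0 to 0.544 FPKM) held both of them. Gm4675, a noncoding gene on the opposite strand, shares 799 bases with Sox21 and was given as at most 0.213 FPKM.

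Sox11, a SoxC factor (NM_009234; chr12:27334268-27342718, minus strand), was the second gene whose days were apart. It was given as 8.11 and 5.73 FPKM at day 6, compared with 14.9 and 23.1 at day 4, with day means of 6.92 ± 1.68 and 19.0 ± 5.79 FPKM (SD, n = 2). Both day 6 intervals ended below both day 4 intervals (highest day 6 bound 8.77, lowest day 4 bound 13.7 FPKM). The log2 difference was -1.33, SE 0.48 (limma, adjusted p = 0.319). It was -1.95, -1.82 and -2.06 after median centring, quantile normalization and GC correction. Adjusted p was 0.00395 without day 4 replicate 1 and 0.0234 without day 4 replicate 2, again with a lone day 4 library.

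Sox4 (NM_009238; chr13:28950730-28953682, minus strand), the most abundant gene of the list at day 6, differed more between the day 4 libraries than between the days. It was given as 42.1 and 22.5 FPKM at day 6, compared with 8.18 and 66.0 at day 4. The 2 day 4 libraries were thus the lowest and the highest of the 4, and the log2 difference of 0.36 had a standard error of 1.10 (limma, adjusted p = 0.885). It turned to -0.27 after median centring and -0.37 after the GC correction, to -1.07 without day 4 replicate 1 and to -0.08 without day 6 replicate 1, and it was called higher without day 4 replicate 2 (1.79, adjusted p = 0.0133). The Sox4 transcript has 51.1% GC, and its day 4 gap of 2.87 log2 units stood beside a median of -0.39 for 2464 tested genes of like GC content.

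The last 942 bases of Sox4 (mm10, chr13:28950730-28951671) are shared with Gm26735, an annotated noncoding gene on the opposite strand. In day 4 replicate 1, where Sox4 was lowest, Gm26735 was highest, at 49.1 FPKM. It was lowest in day 4 replicate 2 (6.84 FPKM), and the day 6 libraries (17.7 and 11.5 FPKM) lay between. Sox4 held 70.4 and 66.2% of the sum of both rows at day 6, and 14.3 and 90.6% at day 4. The sums were 59.8 and 34.0 FPKM at day 6, compared with 57.3 and 72.8 at day 4. On the sum the day 4 libraries were nearer to each other than on either row, while the day 6 libraries stayed apart. The shared stretch is 942 of the 2953 bases of the Sox4 row, and whether it accounts for the day 4 gap was not tested. With the 2 rows summed, the log2 difference was -0.51 (SE 0.52; limma, adjusted p = 0.651). The sources used here do not give whether the authors' quantification used strand, so fragments over the shared bases cannot be assigned to one gene, and the Sox4 values are uncertain.

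**Figure D2:**
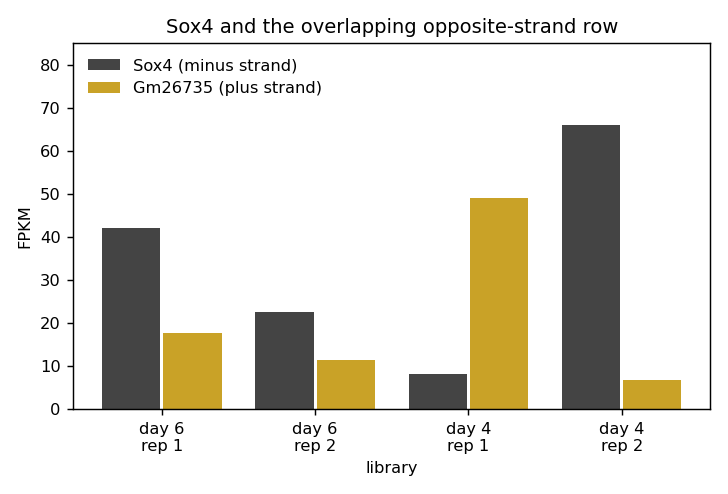
FPKM of Sox4 and of the overlapping opposite-strand row Gm26735 in each library, day 6 left of day 4, as bars from 0. Gm26735 exceeds Sox4 in day 4 replicate 1 (49.1 against 8.18 FPKM) and is the lower of the pair in the other 3 libraries.

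Sox12, the third SoxC gene, whose product is a weaker activator than Sox11, was given as 22.8 and 37.0 FPKM at day 6, compared with 13.3 and 42.5 at day 4 and overlapped. Of 14 Sox genes outside the list, 6 were higher and 3 lower without overlap, and 5 overlapped. The shares over all genes with any FPKM were 38.1% higher and 9.44% lower. The 10 of these Sox genes that were tested had a median log2 difference of 0.74, beside 0.51 for all tested genes. Of these 10, 3 passed the filter through day 6 alone and 1 through day 4 alone, so the median is a description. Sox15, a SoxG gene of stem cells and trophoblast, was on the higher side, at 8.10 and 5.87 FPKM at day 6, compared with 1.39 and 1.83 at day 4 (log2 difference 1.60, SE 0.42; limma, adjusted p = 0.273). Within the SoxC group Sox11 held 11.1 and 8.78% of the summed FPKM at day 6 and 41.1 and 17.6% at day 4. Its share was therefore lower in both day 6 libraries, although the day 4 value of 41.1% comes from the library with the low Sox4 row.

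**Figure D3:**
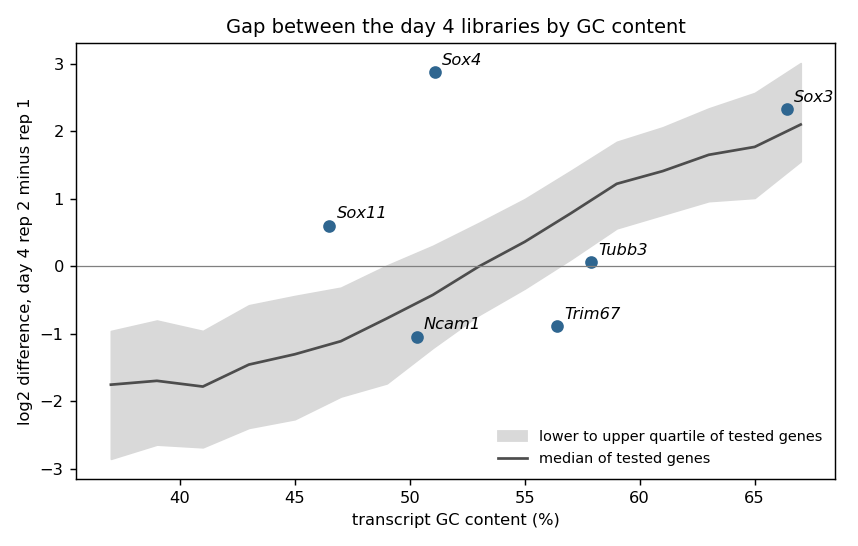
The log2 difference of day 4 replicate 2 minus day 4 replicate 1 against the GC content of the transcript, in percent; the line is the median and the band the range from the lower to the upper quartile of tested genes in bins of 2 percentage points, and points are the 6 genes of the list that were tested. Sox3 (2.33) lies near the line, Sox4 (2.87) and Sox11 (0.60) lie above the band, and Trim67 (-0.88) and Tubb3 (0.06) lie below it.

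The patterning genes Pax3 and Pax6 were both under 1 FPKM in all 4 libraries. Pax3 was detected at day 6, whereas no Pax6 interval excluded 0. Pax3 (chr1:78101267-78197136, minus strand), which marks the dorsal neural tube, neural crest and dermomyotome, was given as 0.851 and 0.608 FPKM at day 6. It was listed at 0 and at 0.184 FPKM at day 4. Both day 6 values were higher, mostly from 1 of its 2 transcript rows, NM_001159520 (0.692 and 0.608 FPKM at day 6). The interval of that row in day 4 replicate 2 (0 to 0.492 FPKM) met those of the day 6 libraries (0.375 to 1.00 and 0.286 to 0.894 FPKM). Pax6 (chr2:105668896-105697364, plus strand), a factor of the eye, forebrain and spinal cord, was listed at 0 in day 6 replicate 1 and day 4 replicate 2, at 0.0478 FPKM in day 6 replicate 2 and at 0.325 FPKM in day 4 replicate 1. All of its intervals started at 0 over 5 transcript rows, so a difference was not detectable at this depth. Of the 7 other Pax genes, 5 stayed under 1 FPKM in all 4 libraries, and Pax1, a gene of the sclerotome, was the 1 tested, having passed the filter through day 4 alone, at 0.0811 and 0.0464 FPKM at day 6, compared with 2.36 and 2.24 at day 4 (log2 difference -1.63, SE 0.34; limma, adjusted p = 0.267).

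Ncam1, the neural cell adhesion molecule (chr9:49502146-49799069, minus strand), was given as 2.21 and 1.67 FPKM at day 6, compared with 1.59 and 0.262 at day 4. The days did not overlap, but day 6 replicate 2 and day 4 replicate 1 were nearly equal, and the log2 difference was 0.69 (SE 0.50; limma, adjusted p = 0.527). It turned to -0.12 after quantile normalization and -0.06 after the GC correction, and it was 1.21 without day 4 replicate 1 (adjusted p = 0.0100). Its gap between the day 4 libraries, replicate 2 minus replicate 1, was -1.04 log2 units, where genes of like GC content had a median of -0.54.

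The 3 annotated Ncam1 transcripts were not used alike. NM_001081445 carried most of the signal, at 1.83 and 1.30 FPKM at day 6, compared with 1.59 and 0.262 at day 4. The longest, NM_001113204, was given as 0.373 and 0.371 FPKM at day 6, with lower bounds of 0.187 and 0.168 FPKM, and as 7.93e-06 and 5.06e-07 FPKM at day 4, with upper bounds of 0.0573 and 0.0579 FPKM. These intervals did not meet between the days. The shortest, NM_010875, which ends at an earlier 3′ end, had upper bounds of at most 0.0809 FPKM in all 4 libraries. The division among transcripts is the authors' estimate and was not tested.

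St8sia2 and St8sia4 encode the enzymes that add polysialic acid to Ncam1. St8sia4 was given as 1.46 and 1.12 FPKM at day 6, whereas the day 4 libraries had 0.0372 and 0 FPKM, while St8sia2 was given as 0.347 and 0.132 FPKM at day 6, compared with 1.12 and 0.190 at day 4. Neither reached a mean of 1 FPKM. Of 7 genes of polysialic acid synthesis and related adhesion, 2 were higher without overlap, 2 were lower and 3 overlapped, and 2 were tested. Among all genes with any FPKM, the shares were 38.1% higher and 9.44% lower. The related adhesion molecules L1cam and Nfasc lay on the other side from Ncam1. L1cam was given as 2.84 and 2.38 FPKM at day 6, compared with 6.37 and 3.58 at day 4 (log2 difference -0.69, SE 0.46; limma, adjusted p = 0.497). Nfasc, an anchor of the axon initial segment, was given as 0.819 and 1.01 FPKM at day 6, compared with 2.91 and 3.26 at day 4 (log2 difference -1.09, SE 0.37; limma, adjusted p = 0.303), and it too passed the filter through day 4 alone.

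Tubb3, the beta-tubulin isotype used to stain neurons (NM_023279; chr8:123411564-123422010, plus strand), was given as 16.7 and 6.91 FPKM at day 6, compared with 6.74 and 7.10 at day 4. Day 6 replicate 1 stood above the other 3 libraries, whose intervals all overlapped. The log2 difference was 0.58 (SE 0.57; limma, adjusted p = 0.639), and it was -0.0011 without day 6 replicate 1 and -0.05 after median centring. Tubb3 made up 1.01 and 0.438% of the summed FPKM of the 8 beta-tubulin genes at day 6, and 0.702 and 0.490% at day 4. More abundant were the widely used isotypes: Tubb5 was given as 827 and 947 FPKM at day 6, compared with 491 and 649 at day 4, and Tubb4b as 347 and 306 FPKM at day 6, compared with 167 and 291 at day 4. Neither was called (limma, adjusted p = 0.564 and 0.631). Of the 8, Tubb3 included, 2 were higher and none lower without overlap. The 7 tested had a median log2 difference of 0.12, beside 0.51 for all tested genes. Of all genes with any FPKM, 38.1% were higher and 9.44% lower in this way.

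**Figure D4:**
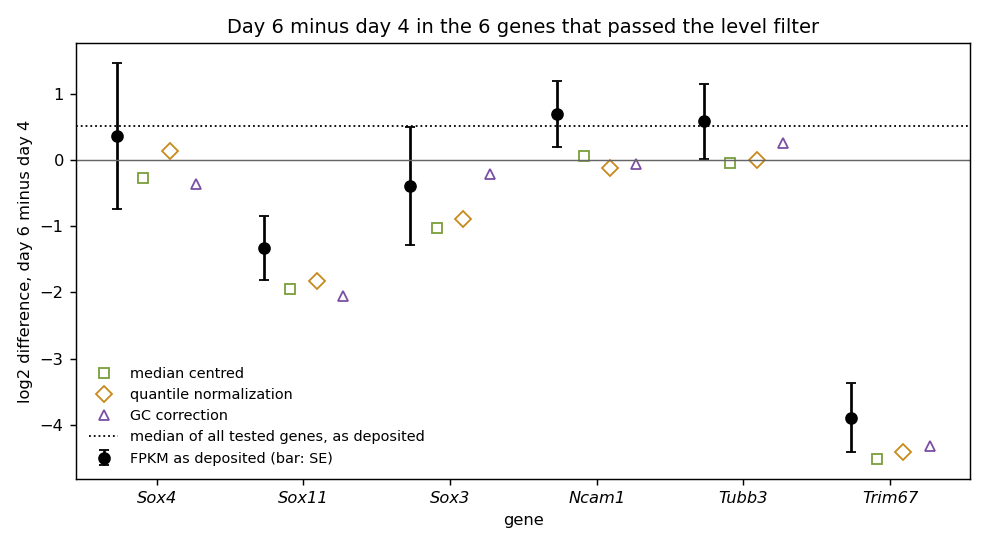
Log2 difference of day 6 minus day 4 for the 6 genes that reached a mean of 1 FPKM, with the standard error for FPKM as deposited and open symbols for 3 other scalings; the dotted line is the median of all tested genes (0.51). Trim67 and Sox11 stay below 0 under each scaling shown, as does Sox3, whose bar crosses 0, while Sox4, Ncam1 and Tubb3 change sign under at least 1 of them.

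Ordered by level, Sox4 came first in both day 6 libraries, followed by Tubb3, Sox11, Sox3 and Ncam1. Tubb3 and Sox11 did not differ beyond their spread there, nor did Trim67, Pax3 and Sox21, which shared the range from 0.411 to 0.954 FPKM. Sox1 and Pax6 were last. At day 4 Trim67 came first in replicate 1 and Sox4 in replicate 2, and the range of Sox4 overlapped those of Trim67, Sox11 and Sox3. At the level of all tested genes, Trim67 exceeded 3.09 and 1.51% of them at day 6 and 83.3 and 74.4% at day 4. Tubb3 exceeded 64.0 and 41.3% at day 6 and 48.6 and 57.4% at day 4, close to the middle on both days.

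The profiles of the 6 tested genes over the 4 libraries differed from each other. The Euclidean distance between log2(FPKM + 1) profiles, each centred on its own mean, was smallest for Sox3 and Sox4 (1.00) and for Ncam1 and Tubb3 (1.01), and largest for Sox4 and Trim67 (5.02). Among all tested genes, the named genes nearest to Sox11 were Fbxo33 (distance 0.12) and Zscan10 (0.14). Zscan10, a zinc finger gene of pluripotent cells, was given as 22.3 and 18 FPKM at day 6, compared with 41.0 and 58.7 at day 4. Nearest to Sox4 was Hspb1 (0.14), a small heat shock protein gene given as 1045 and 574 FPKM at day 6, compared with 211 and 1770 at day 4. It was followed by Them6 (0.18) and Mocs3 (0.22). Nearest to Ncam1 were the proteasome gene Psmb4, Snhg17 and Tmem62 (0.05 each), and the named genes nearest to Tubb3 were Nudt18 and Svop (0.26 each). Unnamed rows were nearer still to Sox11 (0.04) and Tubb3 (0.09). With 4 values a gene, such distances describe these libraries only.

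Of 28 further factors of neural progenitors, 10 had both day 6 values below both day 4 values, 4 had them above (Emx2, Irx3, Six3 and Zic1) and 14 overlapped, beside 9.44% lower and 38.1% higher of all genes with any FPKM. The 11 that were tested had 8 lower and 1 higher and none called, beside 11.5% lower and 41.6% higher of all tested genes. However, 3 of the 11 passed the filter through day 4 alone. After median centring the shares over all tested genes were 26.4% lower and 20.3% higher, and the lists of other genes were not recounted on that scaling. Pou3f1 (Oct6), a POU factor of the epiblast and early neural plate, was given as 18.1 and 9.48 FPKM at day 6, compared with 88.7 and 288 at day 4 (log2 difference -3.51, SE 0.77; limma, adjusted p = 0.267). Zic5, a zinc finger factor of the epiblast and dorsal neural tube, was given as 1.04 and 0.775 FPKM at day 6, compared with 3.69 and 36.8 at day 4. Nkx1-2, a gene of the caudal epiblast that borders the neural plate, was given as 6.51 and 5.47 FPKM at day 6, compared with 9.52 and 12.5 at day 4. The 28 include Sox2, described above. Of the 28, 14 stayed under 1 FPKM in all 4 libraries, among them Rax, Six3, Olig2 and Pou3f2, and Hes5, the Notch effector of neural progenitors, was listed at 0 in each.

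Most of the factors of neuronal differentiation listed were low. Of 13, 5 were listed at 0 in all 4 libraries (Neurog1, Neurod2, Neurod4, Myt1 and Myt1l), and 9 stayed under 1 FPKM in all of them, Neurog2 included. Over the 13 genes, 2 were higher without overlap, 3 were lower and 8 overlapped. The shares over all genes with any FPKM were 38.1% higher and 9.44% lower. Isl1, a LIM factor of motor neurons and of other tissues, was on the higher side, at 0.637 and 1.36 FPKM at day 6, compared with 0.330 and 0.418 at day 4, and was not tested. Neurod1, the 1 gene tested, passed the filter through day 4 alone. It was given as 0.0431 and 0.0985 FPKM at day 6, compared with 2.93 and 2.12 at day 4 (log2 difference -1.71, SE 0.36; limma, adjusted p = 0.267). Both day 6 values were below both day 4 values.

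Neuronal structural genes were split. Of 22, 5 were higher and 8 lower in both day 6 libraries and 9 overlapped. Of the 14 tested none was called, and 3 of them passed the filter through day 4 alone. Over all genes with any FPKM, the split was 38.1% higher and 9.44% lower. Snap25, a synaptic vesicle fusion gene, was listed at 0 in each library, and Dcx (doublecortin), a microtubule protein of migrating neurons, was given as at most 0.0342 FPKM. Stmn2, a tubulin-binding growth cone protein, was given as 13.7 and 6.06 FPKM at day 6, compared with 80.6 and 19.4 at day 4 (log2 difference -2.0, SE 0.87; limma, adjusted p = 0.367). Gap43, another growth cone gene, overlapped at 36.1 and 21 FPKM at day 6, compared with 42.2 and 17.4 at day 4. Tuba1a, an alpha-tubulin that many other cells use too, was the most abundant, at 1524 and 1161 FPKM at day 6, compared with 738 and 417 at day 4 (log2 difference 1.26, SE 0.59; limma, adjusted p = 0.387). In the radial glia list, Vim (vimentin), used by many cell types, was the most abundant and overlapped, at 273 and 310 FPKM at day 6, compared with 210 and 535 at day 4. Aldoc, a glycolytic enzyme of astrocytes, was higher in both day 6 libraries, at 5.80 and 14.8 FPKM at day 6, compared with 2.66 and 1.03 at day 4 (log2 difference 1.93, SE 0.64; limma, adjusted p = 0.302). Prom1, a membrane protein of neural and other progenitors, overlapped at 6.20 and 5.46 FPKM at day 6, compared with 7.75 and 0 at day 4. Nes (nestin), an intermediate filament of progenitors, was given as 14.3 and 5.76 FPKM at day 6, compared with 140 and 87.6 at day 4 (log2 difference -3.46, SE 0.62; limma, adjusted p = 0.267), whereas Aqp4 and Olig1 were listed at 0. Of the 9 genes of that list, 1 was higher and 1 lower without overlap and 7 overlapped, beside the same 38.1% and 9.44% over all genes with any FPKM. The 5 tested had none called and a median log2 difference of 0.49, beside 0.51 for all tested genes. Set against the label of neural progenitor and neuron genes, the markers were mixed. On the list, Sox1, Sox21, Pax3 and Pax6 were under 1 FPKM in all 4 libraries, while Sox4, Sox11 and Tubb3 were above 5 FPKM in all 4. Of other genes named, Hes5, Dcx, Neurog1 and Neurog2 were at or near 0. Sox2, Pou3f1, Nes, Stmn2 and Gap43 were above 5 FPKM in all 4 libraries. Of these, Sox2 is also a pluripotency factor and Pou3f1 also a factor of the epiblast.

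**Figure D5:**
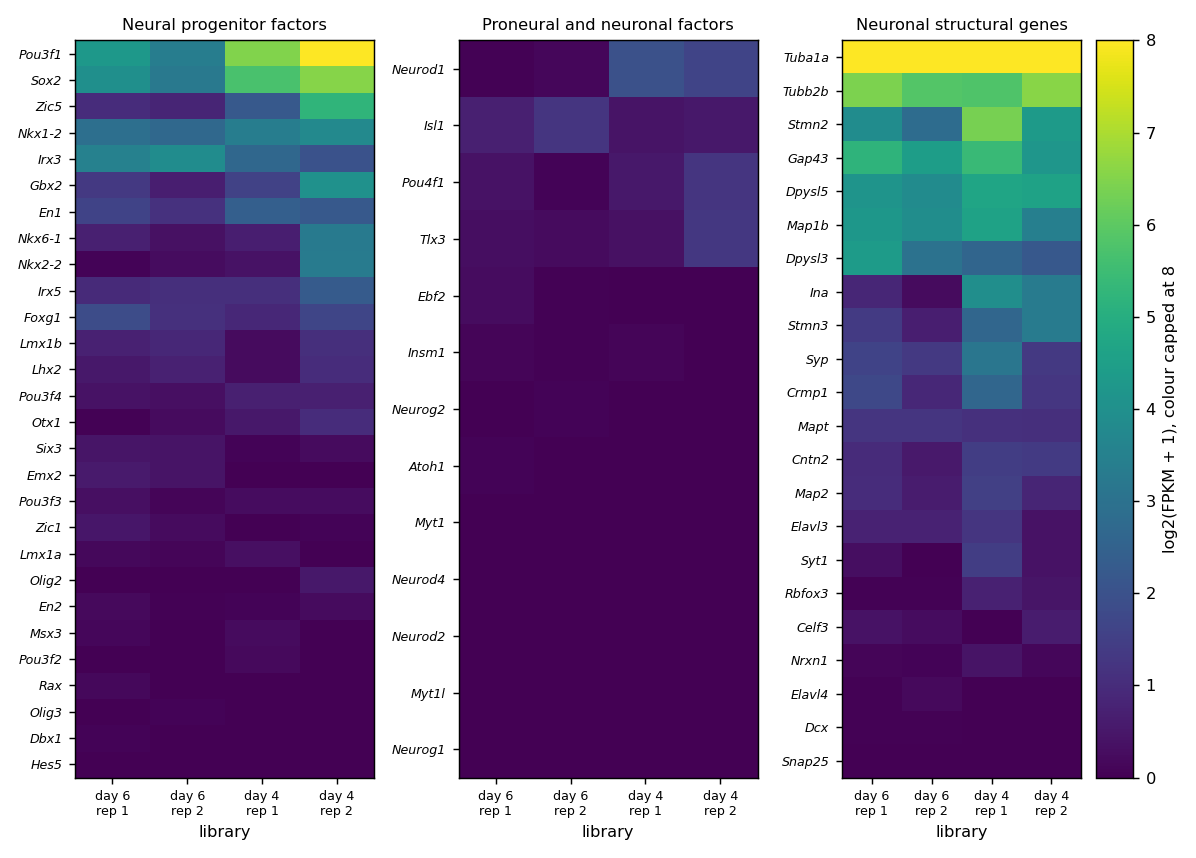
Heat maps of log2(FPKM + 1) for 3 neural gene lists, with genes in rows by mean level and libraries in columns, day 6 left of day 4. Pou3f1, Sox2 and Neurod1 are brighter in the day 4 columns, most proneural factors are dark in all 4 columns, and Tuba1a is bright in all of them.

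Markers of other cell types also differed in level between the libraries. All 10 pluripotency genes were tested, with 5 lower and 3 higher in both day 6 libraries (Esrrb, Klf4 and Zfp42) and 2 overlapping. Their summed level was 230 to 235 FPKM at day 6 and 853 to 943 FPKM at day 4. This sum too joins opposite courses, and a large part of it at day 4 came from Pou5f1 and, in replicate 2, from Utf1 (392 FPKM). Pou5f1, the defining marker of the labelled cell type, was given as 54.9 and 42.0 FPKM at day 6, compared with 368 and 376 at day 4. All 10 streak and mesoderm genes were tested, 6 higher and 4 lower, with sums of 260 to 458 FPKM at day 6 and 330 to 600 FPKM at day 4. These sums join opposite courses. Hand1, on the higher side, supplied most of the day 6 sums (181 and 329 FPKM, and 73.8 and 36.6 FPKM at day 4). T, Mixl1 and Eomes were among the lower genes. Mixl1 fell from 54.2 and 190 FPKM at day 4 to 2.88 and 1.67 FPKM, and Eomes from 53.4 and 55 FPKM to 3.65 and 3.43 FPKM. Of 9 endoderm genes, 6 were higher and none lower without overlap, with sums of 44.7 to 67.6 FPKM at day 6 and 8.39 to 9.58 FPKM at day 4 and Afp at 0. The 13 neural crest and border genes summed to 159 to 210 FPKM at day 6 and 85.8 to 306 FPKM at day 4, with 3 higher, 3 lower and 7 overlapping. Of 14 somite genes, which matter for Pax3, 5 were tested, 4 of them through day 4 alone, and over all 14 there were 4 lower, 2 higher and 8 overlapping, with sums of 7.16 to 7.19 FPKM at day 6 and 18 to 26.2 FPKM at day 4 and Meox2, Uncx and Myf5 at 0. The 9 surface ectoderm genes summed to 2556 to 4028 FPKM at day 6 and 1258 to 2107 FPKM at day 4, with 2 higher, 1 lower and 6 overlapping, and Krt5 at 0. Most of each sum came from Krt8 (day 6: 1803 and 993 FPKM, day 4: 436 and 1067 FPKM) and Krt18 (day 6: 1774 and 1178 FPKM, day 4: 403 and 717 FPKM). Trp63 of the same list did not exceed 0.234 FPKM. Which cells the keratin levels came from was not tested. Notch genes tied to neural progenitors, 8 in number, had 3 lower, none higher and 5 overlapping. Beside each of these counts stand the shares over all genes with any FPKM, 38.1% higher and 9.44% lower. None of these lists held a called gene, and their part in the values of the 10 genes was not tested.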

How the data were processed

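Per the labels' protocols, bead-purified mRNA was made into stranded TruSeq libraries. The submitters' processing notes name CASAVA, TopHat2 2.0.11 and build mm10. The sources used here do not give the quantifier, the annotation or the use of strand. Each of the 4 tables, as deposited by the authors, holds 35656 transcript rows with FPKM and a lower and upper FPKM bound, which covers counting error only. The authors also deposited a coverage signal per row, which was not used for any comparison. No counts are given. Depth was estimated from interval widths, taken as 2 Poisson standard deviations on each side, in genes with 1 row.

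Rows were named through RefSeq (GRCm38.p6) and GENCODE M21 (95.5% of rows), and FPKM was summed per symbol. GC content came from GENCODE transcripts and was known for 97.0% of tested genes. Genes averaging 1 FPKM or more over the 4 libraries were tested on log2(FPKM + 1), a scale that understates changes of low genes. The test was limma 3.58.1 in R 4.3.3 (variance trend, two-sided, Benjamini-Hochberg over all 11716 genes, threshold 0.05, no replicate block). Exact permutation of single genes was not informative with 2 libraries a day.

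The 10 genes and the lists were chosen with earlier results of these data known. Genes of other lists were named from the 4 most abundant of each, whatever their direction. Further genes (St8sia2, Trim9, Aqp4, Olig1, Emx2, Irx3, Six3, Zic1, Esrrb, Klf4, Zfp42 and those given as at or near 0) were named after their values were seen, as was the promoter motif. For likeness, the 3 nearest genes over the 4 libraries were found for Sox4, Sox11, Ncam1 and Tubb3. Some genes of the neuronal differentiation list are not reported here.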

Additional observations from a re-analysis of the deposited data

How the results depend on the processing

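With FPKM as deposited, limma called 0 genes (1793 at an unadjusted p under 0.05) and 0 of the 6 tested list genes. A replicate block called 67 genes, 1 of them on the list, Trim67 (-3.89, adjusted p = 0.0263), and with a GC correction the block called 0 genes and 0 list genes (Trim67 -4.32, adjusted p = 0.108). Deviations of same-numbered libraries from their day means had a correlation of -0.09 over tested genes. It cannot decide whether they share a culture, since the day 4 libraries also differed with GC content. The titles give a replicate number and state no shared culture, so pairing is not known. Leaving out 1 library at a time called 0 to 7837 genes and 0 to 4 list genes. The calls came from the fits without a day 4 library (7837 without replicate 1, 6081 without replicate 2), where the spread rests on the day 6 pair alone. The list genes whose days do not overlap numbered 3 of 6 tested and 6 of 10 with no filter. They numbered 2 after median centring, after quantile normalization or with the highest transcript row, and 3 to 6 without 1 library. Days separate more easily with 2 libraries against 1, so the counts without 1 library cannot be set beside the others. Shares over all genes were not computed for those fits or for the highest transcript row. The other alternatives (a pseudocount of 0.1 FPKM, the highest transcript row, no variance trend) kept the direction of every tested list gene and called none.

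Directions that turned were those of Sox4, Ncam1, Tubb3 and Sox3. Sox4 was -0.27 after median centring, -0.37 after GC correction with or without the block, and -0.51 with the Gm26735 row added, an alternative chosen after seeing the data. Ncam1 was -0.12 after quantile normalization and -0.06 after GC correction with or without the block, and Tubb3 was -0.05 after median centring. Without 1 library, Sox3 ranged from -1.55 to 0.78, Sox4 from -1.07 to 1.79, with -0.08 without day 6 replicate 1, Tubb3 from -0.0011 to 1.16, Ncam1 from 0.18 to 1.21, Sox11 from -1.62 to -1.03 and Trim67 from -4.33 to -3.45. The cause was not tested. Genes under 1 FPKM are limited by depth, more so at day 4.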

Other observations

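Some genes of the neural lists were high in 1 day 4 library alone. These were picked after their values were seen. Nkx2-2, a factor of the ventral neural tube and of endocrine pancreas, was given as 0.0532 and 0.192 FPKM at day 6, compared with 0.310 and 9.14 at day 4. Nkx6-1, expressed in the same places, was given as 0.614 and 0.281 FPKM at day 6, compared with 0.597 and 8.72 at day 4. Gbx2, a factor of the epiblast and anterior hindbrain, was given as 1.53 and 0.585 FPKM at day 6, compared with 1.99 and 15.7 at day 4. In the other direction, Tubb4a, a beta-tubulin of neurons and oligodendrocytes, was given as 4.52 and 3.67 FPKM at day 6, compared with 40.0 and 2.97 at day 4. Irx3, a patterning factor of the neural tube and mesoderm, was the progenitor factor with both day 6 values above both day 4 values among those tested, at 10.4 and 13.9 FPKM at day 6 against 5.35 and 3.07 FPKM at day 4.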
